A study of Mus musculus with 4 samples.

Results

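The genes described here build the machinery that copies DNA and the supply of nucleotides it uses, measured in leaflets of the semilunar (aortic and pulmonary) valves of neonatal mice lacking Cxcr7 (now Ackr3), an atypical receptor that binds and removes the chemokine CXCL12. They were given as a list of 47 genes of 7 roles, out of 18193 genes with a probe set of a single gene symbol. Each gene was represented by its single-symbol probe set of highest mean signal over the 4 arrays. In this way 46 of the 47 were matched; Chaf1a was not. Of the 46, 45 passed the filter on dim probe sets, and Orc1 did not.

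The 4 Affymetrix arrays held 2 Cxcr7-/- pools and 2 Control pools, the latter from wildtype littermates according to the labels. Each pool joined leaflets of 3 neonates, and 50 ng of total RNA was amplified in 2 cycles. Every pool was semilunar valve tissue at the neonatal stage, with no treatment, and the labels give neither strain nor exact age. A mutant could contribute fewer leaflets than a wildtype animal, since its valves had a variable leaflet number. Whole leaflets were used, and the labels name no cell sort. Animals were pooled, so the spread between pools is not the spread between animals.

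Before each division a cell loads the ring-shaped MCM helicase onto replication origins in G1, with the origin recognition complex, Cdc6 and Cdt1. At the start of S phase Cdc45 and the GINS complex join the ring to make it an active helicase, and polymerases, the sliding clamp PCNA and its loader copy the strands behind it. Transcripts of many of these genes rise near the G1 to S boundary under E2F factors. In a newborn valve, leaflet cells still divide as the leaflets remodel, so the summed transcript of such genes partly reflects how many cells are cycling. In pooled tissue, more cycling cells and more transcript per cell cannot be told apart.

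Cxcr7 itself checks the labels: the deposited signals were 28.3 and 328 for Cxcr7-/-, with Control pools at 4936 and 5698. All 12 interstitial cell markers of the leaflet passed the filter on dim probe sets, with a lowest signal of 218. Of the 12 interstitial markers, 2 were higher in both Cxcr7-/- pools and 1 was lower in both, with a median log2 difference of 0.07. Control replicate 2 correlated with the other pools at r = 0.922 to 0.931 over probe sets, and the other pairs at 0.928 to 0.956. By this measure Control replicate 1 was nearer to Cxcr7-/- replicate 2 (0.953) than to Control replicate 2 (0.931). The value for the pair of Cxcr7-/- pools was 0.956, so the pools did not split cleanly by genotype. The 3' to 5' signal ratio, a sign of RNA quality, was lower in both mutant pools than in both Controls. For Actb it read 15.5 and 11.7 in mutants against 20.2 and 19.1. For Gapdh it read 12.6 and 8.20 against 12.7 and 24.2, the nearest pools being almost level. Its part in the values of the replication genes was not tested.

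Signal of the replication genes was modestly higher in the Cxcr7-/- pools. The median log2 fold change of the 45 genes was 0.30, a ratio of 1.23, and that of all 11258 genes kept was 0.0049. In 21 of the 45 both Cxcr7-/- pools lay above both Control pools, which is 46.7%; over all genes kept 21.1% did. In 0 of the 45 did both lie below, where 19.1% of all genes did. The log2 fold change was above 0 for 36 of 45, or 80.0%, against 50.4% of all genes. By limma's moderated test, 4 of 45 were higher at an unadjusted p under 0.05 (8.89%, against 3.95% of all genes) and 0 were lower (4.09% of all genes). No probe set on the array passed an adjusted p of 0.05 (0% of 22518; 2279, or 10.1%, had an unadjusted p under 0.05, 888 of them higher and 1391 lower), and the adjusted p of the 45 genes ran from 0.406 to 0.986. With each array centred on its median, that split was 1421 higher and 809 lower, and 6 of the 45 genes were higher at this p. So no gene is said to have risen or fallen here, and each is given by its values.

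The shift was not the same in both mutant pools. The median difference between a Cxcr7-/- pool and a Control pool over the 45 genes was 0.40 for replicate 1 and 0.26 for replicate 2 against Control replicate 1. Against Control replicate 2 it was 0.44 and 0.19. Within a genotype, the median difference was -0.22 from Cxcr7-/- replicate 1 to 2 and 0.14 from Control replicate 1 to 2; the first of these is close in size to the genotype median of 0.30. Leaving out Cxcr7-/- replicate 1 gave a median of 0.24, and leaving out Cxcr7-/- replicate 2 gave 0.41. Without Control replicate 1 the median was 0.27, and without Control replicate 2 it was 0.28. All 4 of these medians were above 0. Single genes moved as well. Genes above 0 numbered 36 with all pools, 31 without Control replicate 1 and 40 without Control replicate 2. They numbered 34 without Cxcr7-/- replicate 1 and 40 without Cxcr7-/- replicate 2. Turned signs were counted for Control replicate 2 only. Without it 10 of the 45 turned sign, and 6 more kept their sign at a value over 1.5 times smaller. The turned ones were Cdt1, Dnmt1, Gins2, Gmnn, Mcm7, Orc2, Pold1, Pold2, Pold3 and Pole2, and the smaller ones Cdc45, Cdc6, Pole, Rfc3, Rpa3 and Tyms.

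**Figure D1:**
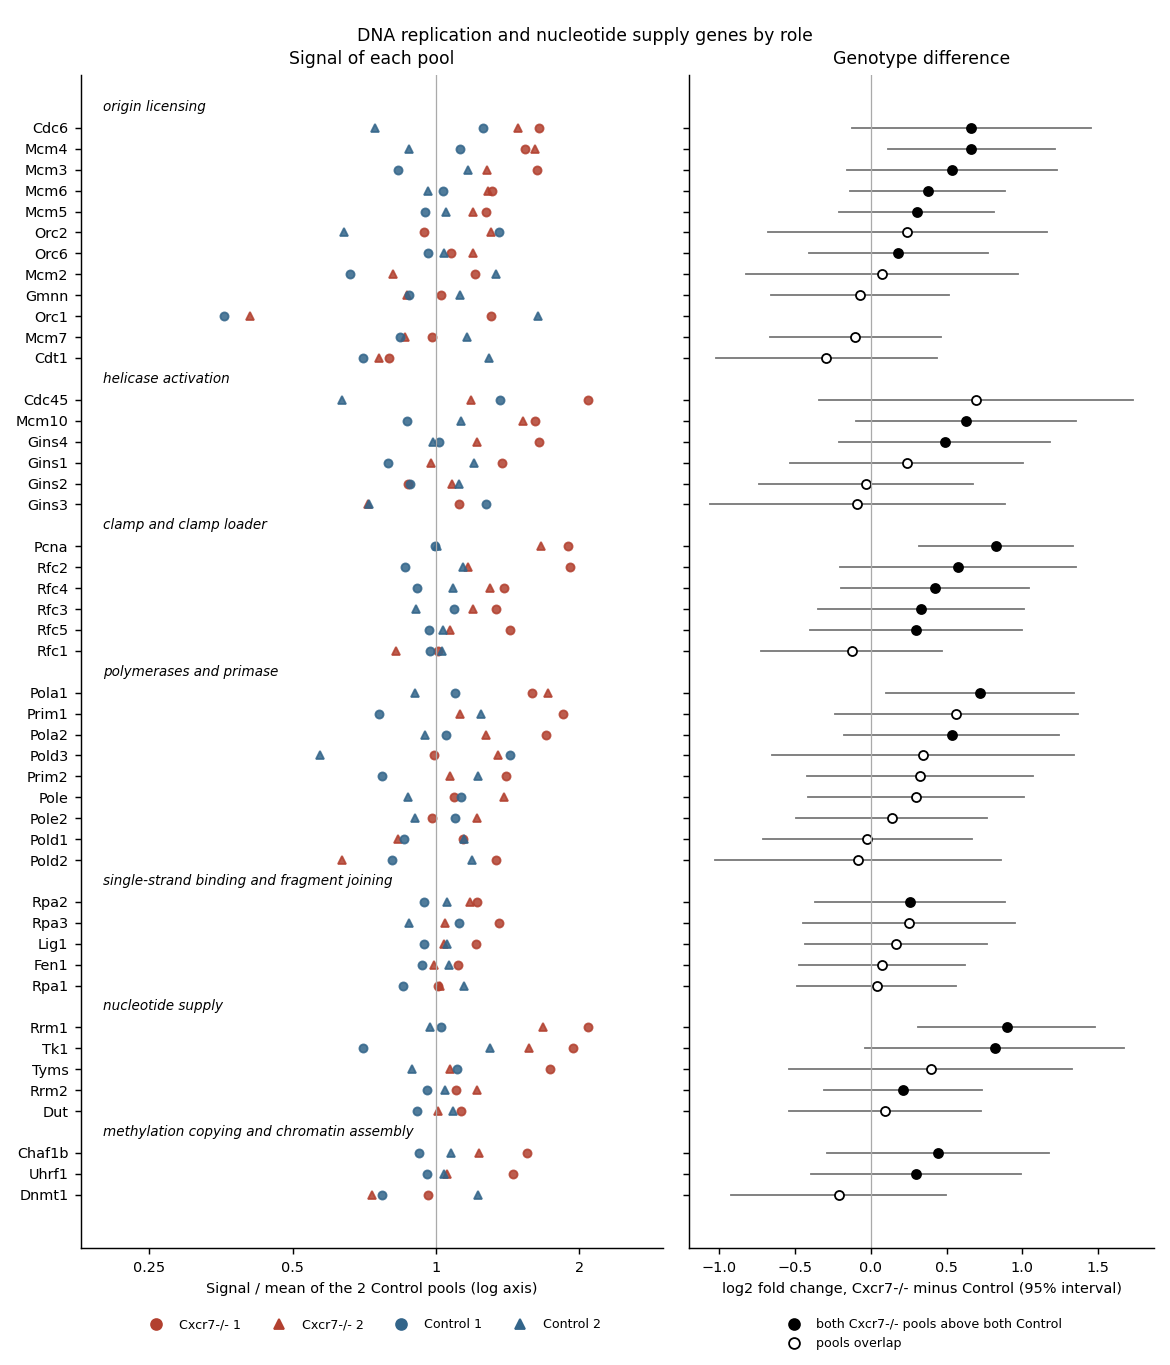
The left panel plots the signal of each pool divided by the mean of the 2 Control pools, on a log axis, for the 46 matched genes by role. The right panel plots the log2 fold change with its 95% interval for the 45 genes kept; filled points mark the 21 genes with both Cxcr7-/- pools above both Control pools, led by Rrm1 at 0.90 and Pcna at 0.83.

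Among the origin licensing genes, 6 of 11 kept genes had both Cxcr7-/- pools above both Control pools and the median was 0.24. Mcm4, a subunit of the replicative helicase ring, read 5154 and 5404 for Cxcr7-/-, with Control pools at 3762 and 2940.3. Its log2 fold change was 0.66 ± 0.24 (standard error; 2 pools a genotype; limma unadjusted p = 0.0244, adjusted p = 0.453), and the pools did not overlap. Cdc6, the ATPase that helps load the ring, read 662 and 598 against 504 and 299, giving 0.66 ± 0.34. The Control pools of Cdc6 lay further apart than its mutant pools did, and without Control replicate 2 the value was 0.31.

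The other ring subunits fell into separate groups by their brightest probe sets. Mcm3 (0.54 ± 0.30), Mcm6 (0.37 ± 0.22) and Mcm5 (0.30 ± 0.22) were higher in both Cxcr7-/- pools. Mcm2 read 1289 and 870.2 against 706 and 1431, with the pools overlapping and a log2 fold change of 0.07 ± 0.39. Mcm7 read 8373 and 7351 against 7160.1 and 9888, at -0.10 ± 0.24. In both Mcm2 and Mcm7 the highest pool of all was Control replicate 2, and without it they were at 0.57 and 0.13. Without Control replicate 1 they were at -0.43 and -0.33, and without Cxcr7-/- replicate 1 at -0.20 and -0.19.

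Cdt1, the loading factor of the MCM ring, had the lowest log2 fold change of the 45 genes, at -0.29 ± 0.32. It read 3287 and 3119 for Cxcr7-/-, with Control pools at 2899.7 and 5332, so its sign rested on Control replicate 2 and turned to 0.14 without it. Gmnn, which encodes the Cdt1 inhibitor geminin, was at -0.07 ± 0.25. Of the origin recognition genes, Orc6 was higher in both Cxcr7-/- pools at 0.18 ± 0.26, and Orc2 overlapped at 0.24 ± 0.40 (-0.28 without Control replicate 2). Orc1 was too dim to be kept, with 101 and 31.5 against 27.7 and 127.

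Of the 6 helicase activation genes, 2 were higher in both Cxcr7-/- pools and the median was 0.36. These were Mcm10, an activator of the loaded helicase, at 0.63 ± 0.31, and the GINS subunit gene Gins4 at 0.49 ± 0.30. Cdc45, which joins MCM and GINS in the active helicase, had the highest log2 fold change of this role at 0.70 ± 0.45. It read 496 and 280.4 for Cxcr7-/-, with Control pools at 324 and 151: replicate 1 was the brighter pool of both genotypes, and the groups overlapped. It was at 0.20 without Control replicate 2, 0.31 without Cxcr7-/- replicate 1, 1.20 without Control replicate 1 and 0.038 with the mean over its probe sets, and Mcm10 was above it in the first of these fits at 0.80. The other Cdc45 probe set, at -0.62, was too dim to be kept. Gins3 had the lowest log2 fold change of this role, at -0.09 ± 0.42, with 194 and 125 against 222 and 126. Gins1 and Gins2, at 0.24 ± 0.33 and -0.03 ± 0.31, overlapped as well, so the 4 GINS subunit genes did not share a sign on these probe sets. The other kept probe sets of Gins2 and Gins3 were at 0.15 ± 0.36 and 0.47 ± 0.50 with overlapping pools. That of Gins3 was at -0.16 without Control replicate 2.

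On the chosen probe sets, the clamp and its loader had the highest share of genes with separated pools, 5 of 6, and a median of 0.38. Pcna, the sliding clamp that holds polymerases on the template, read 7889 and 6919.9 for Cxcr7-/-, with Control pools at 4147 and 4174. The Control pools of Pcna differed by little, and both mutant pools lay well above them. Its log2 fold change was 0.83 ± 0.22, with a 95% interval of 0.32 to 1.33 and an adjusted p of 0.406 by limma. Without Cxcr7-/- replicate 1 it was 0.73.

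Of the loader subunits, Rfc2 (0.58 ± 0.34), Rfc4 (0.42 ± 0.27), Rfc3 (0.33 ± 0.29) and Rfc5 (0.30 ± 0.30) were higher in both Cxcr7-/- pools. For Rfc2 the margin was narrow, with 760.2 in Cxcr7-/- replicate 2 and 743 in Control replicate 2. The other kept probe sets of Rfc2 were at 0.12 ± 0.31 and 0.011 ± 0.28, with overlapping pools. Those of Rfc4 and Rfc3 were at 0.87 ± 0.36 and 0.54 ± 0.33 with separated pools (0.39 and 0.25 without Control replicate 2). The large subunit gene Rfc1 overlapped, with 1622 and 1323 against 1557 and 1648, at -0.13 ± 0.26. The interval of Rfc1, -0.72 to 0.47, overlaps those of the small subunits, its 2 other kept probe sets were at 0.05 and 0.20, and without Cxcr7-/- replicate 2 it was at 0.018.

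On the chosen probe sets, polymerase and primase genes had a median of 0.32. Of these genes 2 of 9 (22.2%) had separated pools, a share near the 21.1% of all genes kept. The separated ones were Pola1 and Pola2 of polymerase alpha, which with primase starts each new strand. The catalytic subunit gene Pola1 read 1319 and 1427 for Cxcr7-/-, with Control pools at 908 and 748, giving 0.72 ± 0.27 on the log2 scale (limma unadjusted p = 0.0284, adjusted p = 0.459). Its partner Pola2 was at 0.54 ± 0.31. The primase genes Prim1 and Prim2 were at 0.57 ± 0.35 and 0.32 ± 0.32 with overlapping pools. On these probe sets Control replicate 2 was brighter than Cxcr7-/- replicate 2 for both genes. Their other kept probe sets were at 0.66 ± 0.26 and 0.29 ± 0.29, with both Cxcr7-/- pools above both Control pools. The other kept probe set of Pola2 was at -0.57 ± 0.41, with both Cxcr7-/- pools below.

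Genes of the polymerases that extend the strands were less shifted in value. On the lagging strand polymerase delta, Pold3 was at 0.35 ± 0.43 (-0.30 without Control replicate 2), Pold1 at -0.02 ± 0.30 and Pold2 at -0.08 ± 0.41. Pold2 read 709.7 and 337 against 429 and 634, and both Control pools lay between the mutant pools. For polymerase epsilon of the leading strand, Pole was at 0.30 ± 0.31 and Pole2 at 0.14 ± 0.27. No difference between polymerases was tested.

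Genes for single-strand binding and for processing and joining of Okazaki fragments had the lowest median of the roles, at 0.16. On the chosen probe sets all 5 were above 0, and 1 of 5 (20.0%), Rpa2, had separated pools, a share near that of all genes kept. Rpa2, a subunit of the complex that coats single-stranded DNA, read 886 and 857 against 684 and 767, at 0.26 ± 0.27. Rpa1, the large subunit gene, read 12685 and 12807 in the Cxcr7-/- pools, and its Control pools lay on either side at 10690.1 and 14394 (0.04 ± 0.23). The flap nuclease gene Fen1 and the ligase gene Lig1 were at 0.08 ± 0.24 and 0.16 ± 0.26, and Rpa3 was at 0.25 ± 0.30. The other kept probe sets of Fen1, Rpa1 and Rpa2 were at 0.52 ± 0.34, 0.26 ± 0.24 and 0.72 ± 0.40. In each of these both Cxcr7-/- pools lay above both Control pools.

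Nucleotide supply genes had the highest median of the roles, 0.40, and all 5 were above 0, 3 of them with separated pools. Rrm1, the large subunit of ribonucleotide reductase that makes deoxynucleotides, read 3012 and 2428 for Cxcr7-/-, with Control pools at 1482 and 1405. Its log2 fold change of 0.90 ± 0.25 was the highest of the 45 genes (95% interval 0.31 to 1.48; limma adjusted p = 0.406). Thymidine kinase Tk1, of the salvage route, read 612 and 495 against 222 and 410.3, at 0.82 ± 0.37, with the lower Control pool setting much of the difference. The small reductase subunit gene Rrm2 was at 0.21 ± 0.22 with separated pools, and thymidylate synthase Tyms at 0.40 ± 0.40 with overlapping ones. Dut, which removes dUTP, was near level at 0.10 ± 0.27, with 979 and 877 against 792 and 945.

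Of the genes that copy DNA methylation and assemble nucleosomes behind the fork, Chaf1b, a subunit of chromatin assembly factor 1, read 470.2 and 374 against 279.8 and 326, at 0.45 ± 0.32. Uhrf1, which reads hemimethylated DNA, was at 0.30 ± 0.30. Both had separated pools, for Uhrf1 by 604 against 595 at the nearest. Dnmt1, the maintenance methyltransferase, read 2150.1 and 1643 for Cxcr7-/-, with Control pools at 1729 and 2748, at -0.21 ± 0.31. Without Control replicate 2 its log2 fold change was 0.12.

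Most of these genes have several probe sets, which gives further readings of the same transcripts in the same pools. The 46 genes had 101 single-symbol probe sets, and 37 kept ones beside the chosen ones, for 26 genes. Of the 37, 33 were above 0 (48.2% of all probe sets kept were), with a median of 0.43. Both Cxcr7-/- pools lay above both Control pools in 19 of them and below in 1, where 20.1% and 22.3% of all probe sets kept did. At an unadjusted p under 0.05, 8 were higher and 0 lower, where 3.94% of all probe sets kept were higher. These readings share pools with the chosen probe sets and are not independent of them.

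For several genes the brightest probe set gave the smallest value. The other Mcm2 probe set read 1324 and 899.6 against 689.6 and 597, at 0.75 ± 0.30, where the chosen one overlapped. The other Mcm7 probe sets were at 0.64, 0.30 and -0.05. Rrm2 was at 0.98 ± 0.39 and 0.59 ± 0.34 on its other probe sets, and the other kept probe set of Rrm1 was at 1.59 ± 0.54, with a low Control replicate 2 (503 and 797 against 363 and 101), without which it was 0.77. The other Uhrf1 probe set was at 1.39 ± 0.68, also with a low Control replicate 2 (235 and 264 against 207 and 24.7). Without that pool it was at 0.24, where the chosen one was at 0.36. Pola2 went the other way: its dimmer kept probe set read 85.5 and 79.2 against 163 and 107, at -0.57 ± 0.41. Dnmt1 split, at 0.38 ± 0.33 and -0.34 ± 0.35. Affymetrix marks probe sets that may match other transcripts with the name endings s_at and x_at. With those left out, the median was 0.38 and 23 of 45 genes had separated pools higher. At an unadjusted p under 0.05, 7 were higher, among them no gene past the adjusted threshold. Over all probe sets kept, those endings included, 20.1% had separated pools higher and 3.94% were higher at this p.

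**Figure D2:**
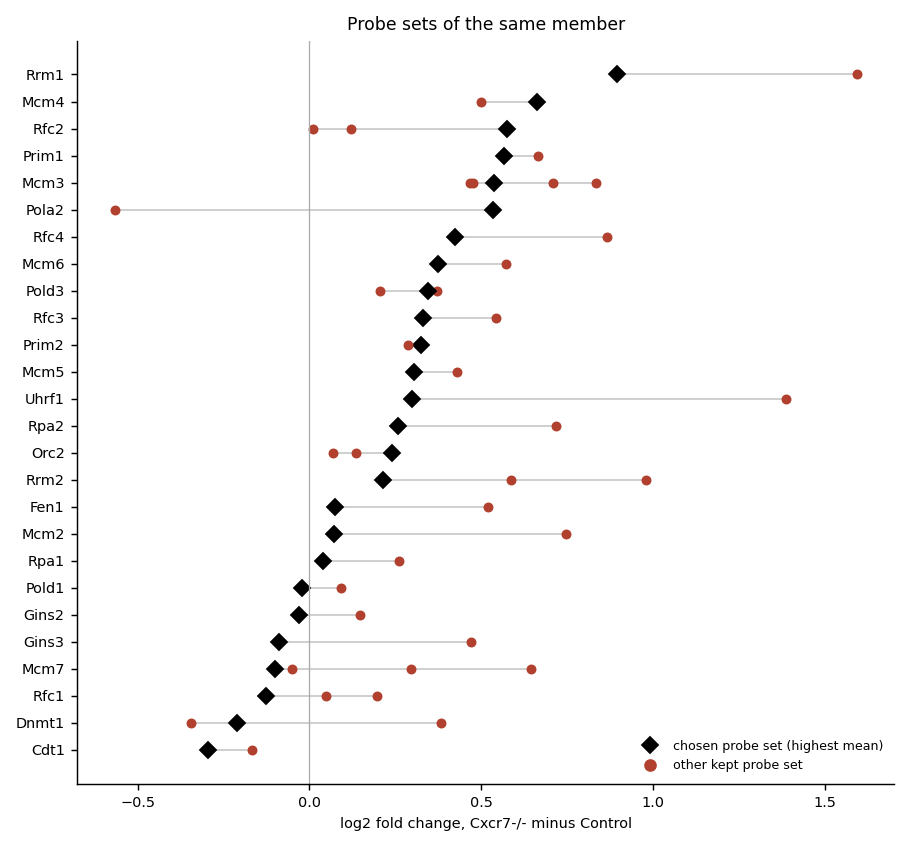
Log2 fold change of Cxcr7-/- minus Control for the 26 genes with more than 1 kept probe set, 1 gene per line; diamonds mark the chosen probe set and circles the 37 others. For Mcm2, Mcm7, Rrm2 and Uhrf1 the circles reach further to the right than the diamond, and for Pola2 the circle lies at -0.57. The Uhrf1 circle lies at 1.39, and its value without Control replicate 2 was 0.24.

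Many of these genes are textbook targets of E2F, and the promoters of members were read for its motif. RefSeq promoter windows (GRCm38.p6, 250 bases before to 50 after the start) were matched by symbol for 39 of the 47 genes. Exact E2F motifs, searched on both strands as TTTCGCGC, TTTGGCGC, TTTCCCGC or TTTGGCGG, were in a window of 19 of the 39, or 48.7%. Among all 27025 genes with a window 2.70% had one. The motif was in 8 of 18 genes with separated pools (44.4%) and in 9 of 19 with overlapping ones (47.4%), and this difference was not tested. CCAAT, the NF-Y motif, was in 25 of 39 (41.1% of all genes), and the CHR element TTTGAA in 6 of 39 (20.2% of all genes), all 6 with overlapping pools. A match is a run of letters, not a bound site. The 4 genes with an E2F motif and the smallest unadjusted p are printed because they place the motif beside the values given above. Capitals mark the motif, and bases are numbered from 1 at the first transcribed base.

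Pola1 (minus strand of chrX:93632184-93632303, bases -148 to -29) and Cdc6 (plus strand of chr11:98908003-98908122, bases -148 to -29) each have the motif before the start. Mcm3 (minus strand of chr1:20820265-20820294, bases 19 to 48) and Pola2 (minus strand of chr19:5964157-5964186, bases 21 to 50) have it after the start, and Mcm3 has it on both strands.
Pola1: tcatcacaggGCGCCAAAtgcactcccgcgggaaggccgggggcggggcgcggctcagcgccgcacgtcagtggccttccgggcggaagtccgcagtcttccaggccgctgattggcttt
Cdc6: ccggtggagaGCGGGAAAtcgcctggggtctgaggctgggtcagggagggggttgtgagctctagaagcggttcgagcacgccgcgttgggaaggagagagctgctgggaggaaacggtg
Mcm3: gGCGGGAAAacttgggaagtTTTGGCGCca
Pola2: gcgcgctaggcaaagcgTTTGGCGGgtttt

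Genes of 5 other lists, on replication, its control, repair, nucleotide synthesis and histone supply, were mostly above 0 as well. These lists share no gene with the 47. Of 98 kept genes, 68 were above 0 (69.4%, against 50.4% of all genes kept), with a median of 0.24. Separated pools were higher in 40 (40.8%, against 21.1%) and lower in 10 (10.2%, against 19.1%). At an unadjusted p under 0.05, 11 were higher (11.2%, against 3.95%) and 2 lower (2.04%, against 4.09%). The same shares of all genes apply to each list that follows.

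Of 23 other replisome and origin genes (median 0.22), 8 had separated pools higher and 1 lower, and 3 were higher at an unadjusted p under 0.05. They were the MCM paralogue Mcm8 at 1.03 ± 0.37, the origin firing factor Topbp1 at 0.66 ± 0.26 and the fork protection gene Tipin at 0.69 ± 0.27. Tipin read 2950.1 and 2842 against 2136 and 1502.

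E2F factors and S-phase cyclins and kinases had a median of 0.29 over 20 genes, with 8 separated higher and 3 lower. Ccna2, which encodes the cyclin A of S phase, read 3801 and 3391 against 1822 and 2129.8 (0.86 ± 0.24). The pocket protein gene Rbl1 was at 0.96 ± 0.27. E2f8, an E2F that represses, read 371 and 658 against 943 and 944, at -0.90 ± 0.34, opposite to most of its list.

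Replication-coupled repair and checkpoint genes had a median of 0.33 over 17 genes, with 8 separated higher and 1 lower. Recombination and resection genes stood on both sides: Rad54l at 1.00 ± 0.33 and Exo1 at 1.06 ± 0.44 were higher, and Brca2 read 222 and 205 against 354 and 475 (-0.88 ± 0.33). Other nucleotide synthesis genes had the lowest median of these lists, 0.15 over 27 genes, with 11 separated higher and 5 lower. The purine synthesis genes Paics (0.74 ± 0.23) and Atic (0.71 ± 0.25) were higher, and the nucleoside diphosphate kinase Nme1 was at -0.88 ± 0.43 with 2992 in Cxcr7-/- replicate 1 and 8309 in replicate 2. Histone supply and assembly genes had a median of 0.22 over 11 genes, 5 of them separated higher and 0 lower. The histone chaperone gene Asf1b was at 0.75 ± 0.30, the histone variant H2afz at 0.46 ± 0.19 and the histone acetyltransferase Hat1 at 0.61 ± 0.26.

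General proliferation markers, most of which act in G2 and mitosis, had larger values than the replication genes. Their median was 0.84 over 9 genes, 8 had separated pools higher, and 6 were higher at an unadjusted p under 0.05. Tpx2 was at 1.16 ± 0.28, Bub1 at 1.22 ± 0.29 and the topoisomerase Top2a at 0.76 ± 0.23. Mki67, singled out after its values were seen, was the exception, with 3880.0 and 8009 against 5486 and 5349.5 (0.04 ± 0.34). The difference between this list and the replication genes was not tested.

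**Figure D3:**
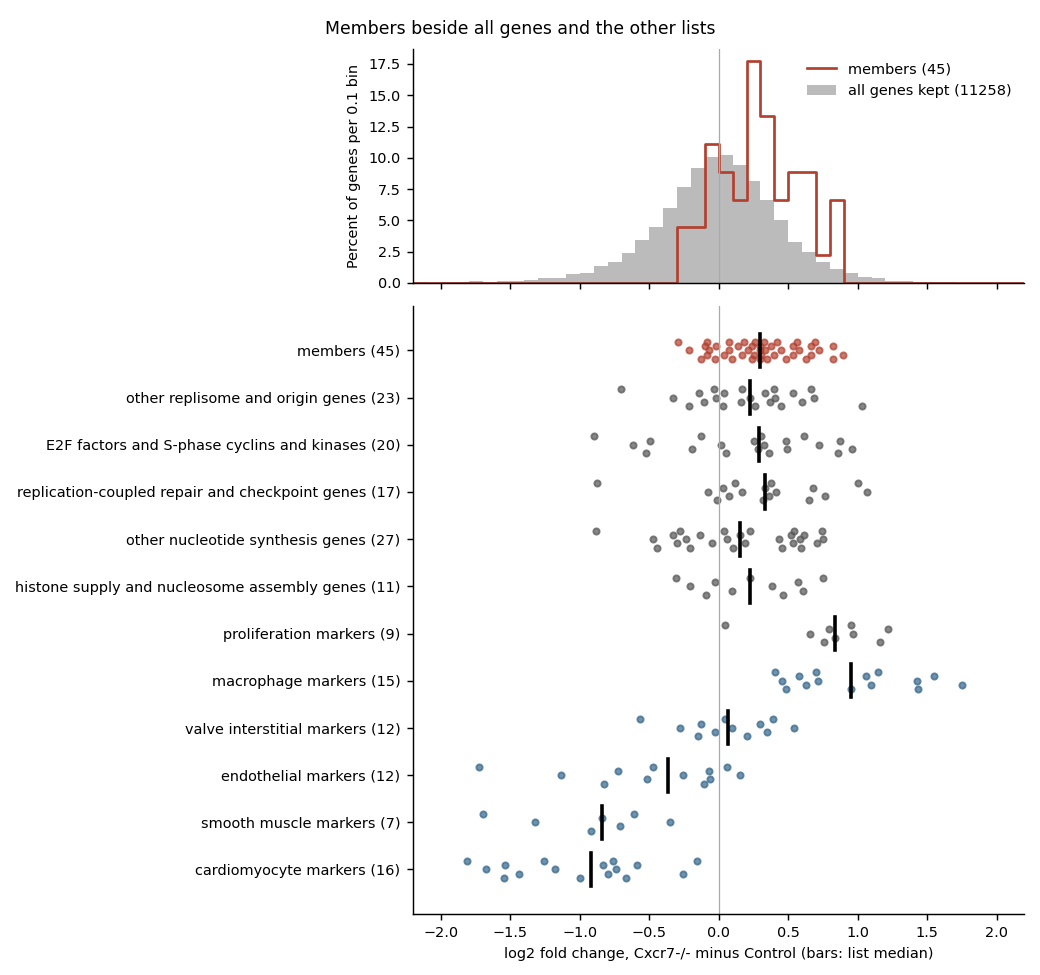
The upper panel plots the percent of genes per 0.1 bin of log2 fold change (Cxcr7-/- minus Control) for all 11258 genes kept and the 45 replication genes; the lower panel plots each gene of the named lists as a point with the list median as a bar, and the axis ends at 2.2 on either side. The replication genes centre on 0.30, the proliferation markers on 0.84, the macrophage markers on 0.95 and the cardiomyocyte markers on -0.92.

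Markers of other cell types differed between the same pools. All 15 kept macrophage markers of 16 listed were above 0 and 13 had separated pools higher, with a median of 0.95. Their summed signal was 22183 to 27137 in the Cxcr7-/- pools and 13421 to 16325 in the Control pools. All 16 cardiomyocyte markers were below 0 and 14 had separated pools lower, with a median of -0.92. Their summed signal was 94957 to 138853 in the Cxcr7-/- pools and 175177 to 244790.1 in the Control pools. All 7 kept smooth muscle markers of 8 were below 0, with a median of -0.84 and summed signals of 16441 to 21034 against 25923 to 34877.

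Endothelial markers had a median of -0.36 over 12 genes, 6 of them separated lower, with sums of 13453 to 15427 against 18852 to 24115. Lung epithelial markers summed to 1351 to 1563 against 4349 to 7949.7, erythroid markers to 1297 to 2972 against 1799 to 3708 and lymphocyte markers to 1187 to 1839 against 668 to 954. Most of the last sum was Ptprc, a gene of all leukocytes and the only kept marker of that list, at 1032 and 1535 against 742 and 500.4. The 5 dim lymphocyte markers summed to 155 and 305 against 212 and 168, with the pools overlapping. The filter on dim probe sets kept 3 of 8 matched erythroid markers, 1 of 6 lymphocyte markers and 4 of 7 lung epithelial markers. None of the 18193 genes was listed at 0, so a signal above 0 is no sign of presence. The part of any of these cell types in the values of the replication genes was not tested.

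**Figure D4:**
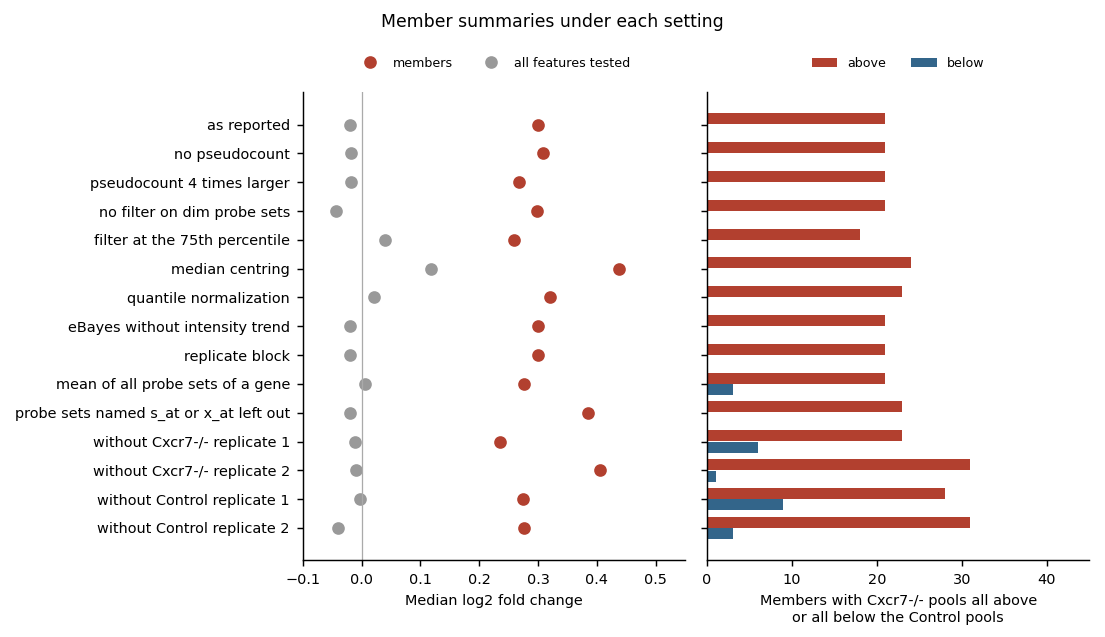
The left panel plots the median log2 fold change of the replication genes and of all features tested under each processing setting; the right panel counts the replication genes whose Cxcr7-/- pools all lie above, or all below, the Control pools. The median of the replication genes ran from 0.24 to 0.44 and lay above that of all features under every setting plotted.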

How the data were processed

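Per the labels, each array measured 1 pool of leaflets from 3 neonates, 2 pools per genotype. Each probe set has 1 deposited intensity an array, on a linear scale, made with Expression Console and MAS5 per the submitters' processing notes; no version is stated there. The trimmed mean was 500.003 on every array, so a value is relative to its array's overall brightness.

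From these, log2(signal + 22) was taken, where 22 is the rounded 25th percentile, and probe sets above the median mean log2 value were kept (22518 of 45037). Array annotation gave 1 symbol to 34945 probe sets, several to 932 and none to 9160. The genotype test was limma's (version 3.58.1, R 4.3.3; lmFit and eBayes with trend, two-sided), and p-values were adjusted over all probe sets kept by Benjamini-Hochberg. Values after ± are limma's moderated standard errors. An exact permutation test of 2 against 2 pools cannot go below p = 0.333. The number of arrays limits the precision. The series text calls the pools biological replicates, and no label names their litters. The p-values and standard errors rest on the spread between these pools, moderated by limma. Each probe set's own spread had 2 residual degrees of freedom, and 5.85 prior ones were borrowed from the other probe sets kept.

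Pool values were given for genes at an unadjusted p under 0.05 and for the highest and lowest of each role, and up to 3 genes of smallest p were named per other list; any further gene was singled out after its values were seen. Members, lists and tests were chosen with earlier results of these data known. The fit was checked on simulated data with changes larger than those of the replication genes. Alternatives were no pseudocount, one of 88, other filters on dim probe sets, median centring, quantile normalization, no intensity trend, the replicate number as a block, the mean over a gene's probe sets, and each pool left out. Listed genes without a single-symbol match were left out.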

Additional observations from a re-analysis of the deposited data

How the results depend on the processing

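The median of the replication genes stayed within 0.24 to 0.44, and 0 of the 45 genes passed the adjusted threshold in any alternative run, the crossed block and the fits with 1 pool left out included. With each array centred on its median, the median moved to 0.44, while the median of all probe sets kept moved from -0.02 to 0.12. The count of genes higher at an unadjusted p under 0.05 was 4 as reported, where 888 of all 22518 probe sets kept were higher. It was 7 without probe sets named s_at or x_at (an alternative chosen after seeing the data). With the replicate number as a block it was 2, where 640 of all probe sets kept were higher. The count also moved with 1 pool left out, as did that over all probe sets kept. The count lower was 0, and 0 to 1 with 1 pool left out. Probe sets past the adjusted threshold numbered 0 as reported and 0 with the replicate block, and ran from 0 to 673 with 1 pool left out: 673 without Control replicate 1 and 8 without Cxcr7-/- replicate 2. Genes with separated pools higher numbered 18 to 24 under the other settings, the 18 being out of 39 genes kept by the stricter filter. With 1 pool left out they numbered 23 to 31, where fewer pools must separate. Genes separated lower numbered 0 under the other settings, except 3 with the mean over probe sets. They numbered 6 without Cxcr7-/- replicate 1, 1 without Cxcr7-/- replicate 2, 9 without Control replicate 1 and 3 without Control replicate 2. The shares of all genes in these fits were not counted. With 1 pool left out, the lone pool is assumed to vary like the other genotype.

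Replicate numbers are not tied to a litter or day by any label. Deviations from the genotype means correlated at -0.26 between the replicates numbered 1. A crossed replicate block, chosen after seeing the data, gave 5 probe sets past the adjusted threshold. At an unadjusted p under 0.05, it gave 6 replication genes higher, where 1260 of all 22518 probe sets kept were higher.

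Signs turned for genes near 0 and for some further from it. With the mean over probe sets, Pola2 went from 0.54 to -0.18, Mcm6 from 0.37 to -0.11 and Gins1 from 0.24 to -0.030. This mean also took in probe sets too dim to be kept, at -0.50 for Pola2, -1.27 for Mcm6 and -0.30 for Gins1. The other kept probe sets were at -0.57 for Pola2 and 0.57 for Mcm6. Without Control replicate 2, Pold3 went from 0.35 to -0.30 and Orc2 from 0.24 to -0.28. Ranges here are over the fits with 1 pool left out. Gins3 was at 0.050 with median centring, 0.023 with quantile normalization and 0.19 with the mean over probe sets, and ranged from -0.45 to 0.27. Pold2 was at 0.053 with median centring and ranged from -0.60 to 0.43. Rfc1 was at 0.011 with median centring and 0.039 with the mean over probe sets, and ranged from -0.27 to 0.018. Dut was at -0.33 with the mean over probe sets, which took in a dim one at -0.76, and ranged from -0.028 to 0.22. Rpa1 was at -0.0039 with quantile normalization and ranged from -0.18 to 0.25. Dnmt1 was at 0.38 without probe sets named s_at or x_at and ranged from -0.54 to 0.12, and Cdt1 ranged from -0.73 to 0.14. The cause was not tested. Orc1 was too dim for the fit.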
